A study of Mus musculus with 15 samples.

Results

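The nuclear genome encodes most subunits of the 5 complexes of oxidative phosphorylation, and 82 of these genes are described here, out of 18193 mouse genes with a probe set of their own. They were chosen by name: every probe set with a single gene symbol whose symbol begins with Ndufa, Ndufb, Ndufc, Ndufs, Ndufv, Sdha, Sdhb, Sdhc, Sdhd, Uqcr, Cox4i, Cox5, Cox6, Cox7, Cox8 or Atp5, with the Ndufaf and Sdhaf assembly factors left out. A gene read by more than 1 probe set is represented by the brightest of them, judged by its mean over the 15 arrays. The set holds 36 genes of complex I, 4 of complex II, 8 of complex III, 17 of complex IV and 17 of complex V.

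Complexes I and II pass electrons from NADH and succinate to ubiquinone, complex III passes them on to cytochrome c, and complex IV to oxygen. Proton pumping by complexes I, III and IV drives complex V, the ATP synthase. Complexes I, III, IV and V surround their cores with accessory or regulatory subunits, while complex II consists of its core alone, and in hepatocytes the ATP made pays for gluconeogenesis, urea synthesis and protein secretion. Ndufa4, named for complex I, is now counted with complex IV, but it is kept here under its name.

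Primary hepatocytes of C57BL/6 mice, kept in serum-free medium, were profiled on Affymetrix Mouse Genome 430 2.0 arrays, 1 per RNA sample. IRE1a, encoded by Ern1, is a kinase and endoribonuclease of the endoplasmic reticulum that senses unfolded protein and splices the Xbp1 message. Cells carried adenovirus for wild-type IRE1a (WT IRE1a), for IRE1a with a serine replaced by alanine (S724A IRE1a), or for EGFP as their control, each for 48 hours and with no other treatment. Other cells carried adenovirus for a hairpin against IRE1a (hairpin #2, shIRE1a) or for a control hairpin (shCON) for 72 hours, and both were then given glucagon for 4 hours. Each of the 5 groups has 3 arrays, from experiments that the series text calls independent. All cells were cultured and virus-infected, 1 hairpin stands for the knockdown, and neither the share of cells infected nor the animals' age is stated in the labels.

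The deposited values are GCRMA signals on a log2 scale, on which a difference of 1 is a change of 2-fold. They were compared with limma, a linear model fitted to 16294 genes on all 15 arrays, and a gene is said to have risen or fallen where its Benjamini-Hochberg adjusted p over all those genes was under 0.05. Errors of differences are standard errors. Array medians lay between 5.69 and 5.83, and no 2 arrays held identical values. Ern1, the targeted gene, had signals of 7.60, 7.44 and 7.51 in shIRE1a cells, against 8.89, 8.96 and 9.10 in shCON cells, a fall of 1.47 ± 0.19 (adjusted p = 0.00293). It had 9.30, 8.89 and 9.07 in WT IRE1a cells and 9.68, 9.04 and 9.54 in S724A IRE1a cells, against 9.41, 8.68 and 8.81 in EGFP cells. These groups overlapped, so Ern1 does not check the labels of the overexpression arrays, and the labels do not say whether the viral message holds the stretch that the probes read. Of 7 hepatocyte markers, 6 had a probe set, with signals of 10.25 to 14.56, while 26 markers of other liver and blood cells lay between 2.77 and 7.50. Of those 26, 22 could be tested, and 0 passed in any comparison except the control hairpin against EGFP, where 1 rose and 1 fell. Of all genes, 7.67% passed for WT and 6.12% for S724A IRE1a against EGFP, and 0% between the constructs. The share was 0.233% for the knockdown and 16.1% for the control hairpin against EGFP. Among 22 markers these counts are near those shares, and they do not show that the mix of cells was unchanged. The log2 of the 26 summed signals was 10.32 to 10.42 in WT IRE1a cells and 10.14 to 10.33 in S724A IRE1a cells, against 10.30 to 10.43 in EGFP cells, and 10.09 to 10.47 in shIRE1a cells, against 10.13 to 10.23 in shCON cells. In bulk RNA, fewer cells of a type and less RNA per cell cannot be told apart.

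Promoters are shown for the 4 subunit genes that fell after wild-type IRE1a, to give the sequence around their start sites. Each runs from 250 bases before to 50 bases after the start in RefSeq on GRCm38.p6, read on the gene's own strand. Ndufa9 lies on the minus strand (chr6:126849095-126849394), as do Ndufs4 (chr13:114388045-114388344) and Atp5o (chr16:91931581-91931880), and Atp5d lies on the plus strand (chr10:80142025-80142324; the first of 2 starts listed). Capitals mark matches to motifs of factors known to act at respiratory gene promoters or in the unfolded protein response.
Ndufa9: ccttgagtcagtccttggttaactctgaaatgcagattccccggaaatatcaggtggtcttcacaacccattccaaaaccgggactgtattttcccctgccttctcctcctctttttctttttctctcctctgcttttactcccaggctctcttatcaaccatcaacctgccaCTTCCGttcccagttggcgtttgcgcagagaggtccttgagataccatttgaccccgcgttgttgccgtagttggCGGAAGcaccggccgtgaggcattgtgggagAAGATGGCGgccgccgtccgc
Ndufs4: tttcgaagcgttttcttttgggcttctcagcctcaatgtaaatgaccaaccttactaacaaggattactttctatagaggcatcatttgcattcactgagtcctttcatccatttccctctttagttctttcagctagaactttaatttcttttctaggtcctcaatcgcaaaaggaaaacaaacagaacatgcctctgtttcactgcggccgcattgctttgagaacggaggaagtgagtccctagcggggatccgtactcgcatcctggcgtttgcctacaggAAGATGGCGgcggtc
Atp5o: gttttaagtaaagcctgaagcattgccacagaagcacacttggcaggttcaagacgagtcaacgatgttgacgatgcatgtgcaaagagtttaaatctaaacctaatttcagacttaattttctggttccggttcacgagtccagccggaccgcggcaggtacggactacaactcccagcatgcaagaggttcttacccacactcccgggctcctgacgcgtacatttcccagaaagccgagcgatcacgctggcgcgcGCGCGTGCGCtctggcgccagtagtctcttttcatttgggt
Atp5d: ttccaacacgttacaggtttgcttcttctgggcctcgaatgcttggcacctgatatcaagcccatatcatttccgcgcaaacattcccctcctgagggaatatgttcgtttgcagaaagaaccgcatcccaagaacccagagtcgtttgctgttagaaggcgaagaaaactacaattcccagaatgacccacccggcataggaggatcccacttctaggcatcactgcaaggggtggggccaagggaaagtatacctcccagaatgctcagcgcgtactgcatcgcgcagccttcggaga

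The motifs were searched on both strands as NRF1 (GCGCA, any base, GCGC), ETS, the core bound by GABP (CGGAAG), YY1 (AAGATGGCG), ERR (TCAAGGTCA), CRE (TGACGTCA) and ERSE (CCAAT, 9 bases of any kind, CCACG), and no matches shown overlap each other. The Ndufa9 window held ETS matches starting at positions -77 and -2 and a YY1 match at 30, counted from the start site with no position 0. The Ndufs4 window held a YY1 match at 36 and the Atp5o window an NRF1 match at 10. The Atp5d window held none of the 6 motifs. Over the 67 subunit genes with a listed promoter, NRF1 was found in 22.4%, ETS in 43.3% and YY1 in 8.96%. Over the 12926 tested genes with a promoter, the shares were 9.32%, 29.0% and 2.78%. ERR was found in 2.99% of the subunit promoters and CRE in 4.48%, against 0.41% and 3.07% of tested genes. ERSE, the element bound by XBP1 and ATF6, was found in 0 of 67, against 0.155% of tested genes. These matches describe letters in the windows and not bound sites.

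The subunit signals were high and steady. The mean over 15 arrays was 9 or more for 72 of 82 genes, with a median of 11.69, and the median standard deviation within groups was 0.094. The 10 dimmer probe sets included muscle, lung and testis isoforms of complex IV (Cox4i2, Cox6a2, Cox6b2, Cox7a1, Cox7b2, Cox8b) but also Ndufb4 at 4.09 and Cox7c at 6.76, whose proteins are regular subunits. Probe sets that name Ndufb4 together with Ndufb4b and Ndufb4c read 11.54 and 11.17, and the single-symbol rule leaves them out. The dim probe set kept here therefore says little about Ndufb4. Signals of different probe sets cannot be read as amounts relative to each other. Cox7b2, a testis isoform, lay at 2.92 to 3.48 on all arrays and failed the filter, a signal of 4 or more on at least 3 arrays, so 81 genes were tested. The range over the 15 arrays was 0.43 in the median gene and over 1 in 5 genes: Cox6b2 (3.48), Ndufa4l2 (2.75), Ndufa9 (2.52), Cox7a1 (1.22) and Atp5o (1.03). The heat map of all tested subunits shows the Ndufa9 row dividing the WT and S724A IRE1a arrays from the other 9.

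**Figure D1:**
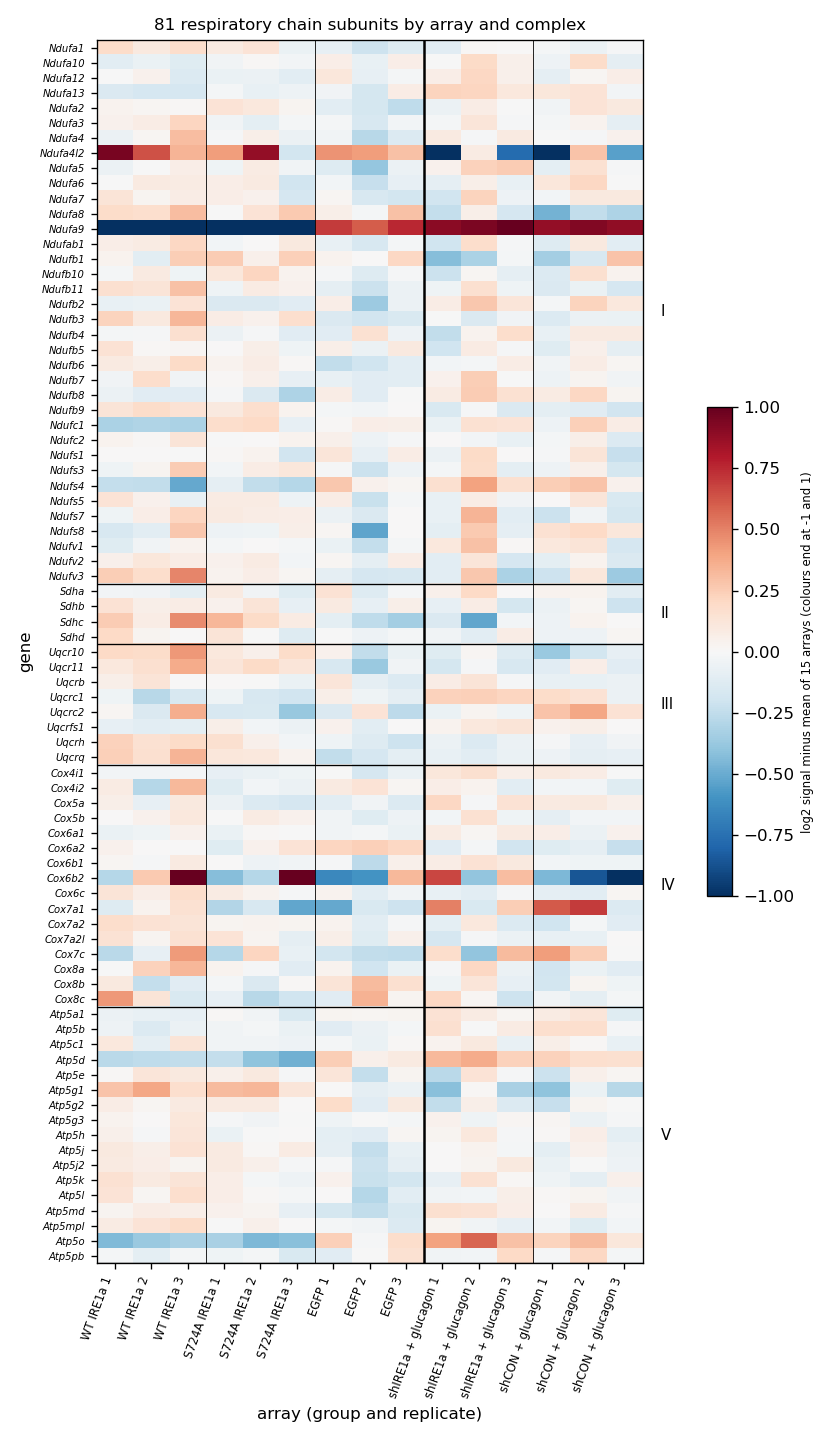
Each row is 1 of 81 tested subunit genes, grouped by complex, and each column is 1 array; colour gives the log2 signal minus the gene's mean over 15 arrays and ends at -1 and 1. The Ndufa9 row is at the blue end on all 6 arrays with IRE1a virus and red on all 9 others, while Cox6b2 and Ndufa4l2 vary between arrays of the same group.

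After wild-type IRE1a, Ndufa9 showed the largest difference among the 81 subunits, and 9 further subunits passed the test with differences between 0.29 and 0.51 in size. Those that fell were Ndufa9 and Ndufs4 of complex I and Atp5o and Atp5d of complex V. Those that rose were Ndufb3 and Ndufb6 of complex I, Sdhc of complex II, and Uqcrq, Uqcr11 and Uqcrh of complex III. In all, 10 of 81 passed (12.3%), against 7.67% of all genes tested: 6 rose (7.41%, against 5.08%) and 4 fell (4.94%, against 2.59%). The balance depends on the scaling: 3 rose and 5 fell with quantile normalisation, and 3 rose and 4 fell with each array centred on its median. Over all genes past the threshold the rising share was 66.2%, against 53.1% and 59.4% under those scalings. With the 6 arrays of the comparison alone 2 passed, Ndufa9 and Atp5o, and the other 8 calls were lost. The median difference over the subunits was 0.12, or 0.06 with quantile normalisation and 0.07 with median centring, against 0.00 over all genes and 0.05 over genes with a signal of 6 or more on at least 3 arrays. With each replicate number as a block, since arrays of the same number deviated together, 16 subunits passed (19.8%, against 15.6% of all genes with the block). Of these 11 rose and 5 fell, where 10.6% and 4.99% of all genes did. The count rests on each array: it was 6, 5 and 3 without WT IRE1a replicate 1, 2 or 3, and 6, 4 and 6 without EGFP replicate 1, 2 or 3. Whether past the threshold or not, the 3 WT arrays all lay above the 3 EGFP arrays for 31 of 81 subunits (38.3%, against 15.8% of all genes) and below them for 8 (9.88%, against 10.9%). The subunits of 1 array are not separate replicates, so such counts, here and below, rest on 3 arrays a group. Counts of groups that did not overlap were not repeated under other scalings or set against bright genes alone, and the subunits are mostly bright.

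Ndufa9 encodes an accessory subunit at the joint between the matrix arm and the membrane arm of complex I, needed to keep the arms together. Its signal was 9.54, 9.41 and 9.54 in WT IRE1a cells, against 11.39, 11.29 and 11.44 in EGFP cells. The groups lay far apart: the difference was -1.88 ± 0.09, a 3.67-fold lower signal in WT IRE1a cells (adjusted p = 3.47e-08). In S724A IRE1a cells the signal was 9.46, 9.17 and 9.39, which against the same EGFP arrays was -2.03 ± 0.09, or 4.09-fold lower (adjusted p = 1.16e-08). Against each other, WT and S724A IRE1a cells differed by 0.15 (95% interval -0.05 to 0.36), and their arrays overlapped. The 9 arrays without IRE1a virus lay between 11.29 and 11.69. A single probe set reads Ndufa9, so no other could be set beside it. The call held under every alternative run, with WT differences of -1.96 to -1.83 and S724A differences of -2.13 to -1.95.

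**Figure D2:**
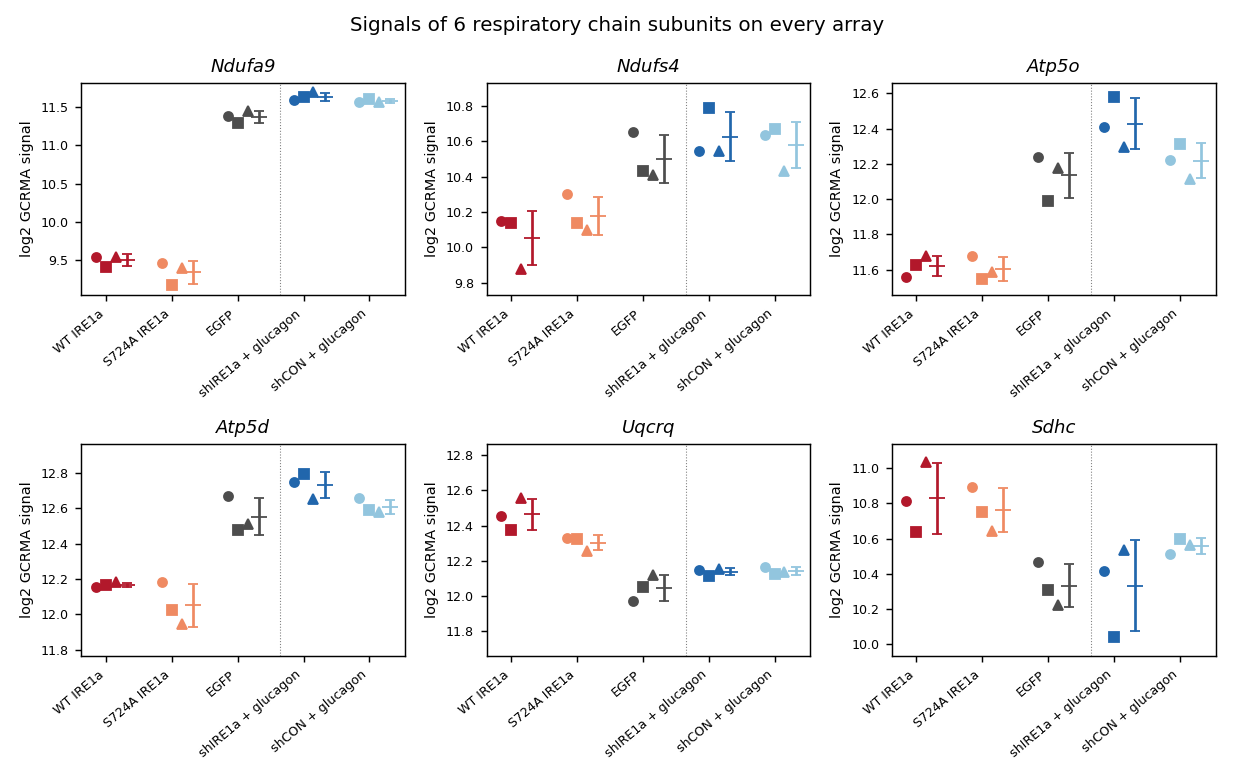
Log2 GCRMA signals of 6 subunit genes in the 5 groups; each point is 1 array, with the replicate number as its shape, and the bar beside it is the mean ± SD of 3 arrays. Ndufa9, Atp5o, Atp5d and Ndufs4 are lower on every WT and S724A IRE1a array than on any EGFP array, and Uqcrq and Sdhc are higher; the axes differ between panels and do not start at 0.

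The other complex I subunit that fell, Ndufs4, is an accessory subunit of the matrix arm whose loss in mice causes a Leigh-like brain disease. It had 10.15, 10.14 and 9.88 in WT IRE1a cells, against 10.65, 10.43 and 10.41 in EGFP cells. Every WT array was lower, by 0.44 on average (-0.44 ± 0.12, adjusted p = 0.0316). In S724A IRE1a cells it had 10.30, 10.14 and 10.10, a difference of -0.32 ± 0.12 that missed the threshold (adjusted p = 0.118) and passed it with the replicate block (adjusted p = 0.0397). A second probe set of Ndufs4 read -0.43 and -0.44 in the WT and S724A comparisons, both past the threshold over all probe sets, while its 2 dimmest probe sets did not pass. The mean of its probe sets gave -0.19 for WT against EGFP (adjusted p = 0.276). The WT call was also lost without WT replicate 2 or 3 or any 1 EGFP array, with adjusted p up to 0.14.

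Ndufb3 and Ndufb6, accessory subunits of the membrane arm, moved the other way. Ndufb3 had 11.17, 11.05 and 11.28 in WT IRE1a cells, against 10.80, 10.76 and 10.80 in EGFP cells (0.38 ± 0.09, adjusted p = 0.0155). Ndufb6 had 12.18, 12.15 and 12.28, against 11.85, 11.89 and 11.99 in EGFP cells (0.29 ± 0.08, adjusted p = 0.0463). No WT array overlapped the EGFP arrays for either gene. The Ndufb3 call was lost without WT replicate 3 or EGFP replicate 2 (adjusted p up to 0.0757), and the Ndufb6 call without any 1 of the 6 arrays (up to 0.168). Quantile normalisation also ended both calls (0.0542 for Ndufb3 and 0.121 for Ndufb6), and median centring (0.0997) and the mean of the probe sets (0.2) ended that of Ndufb6. With the block, Ndufb11 (0.32, adjusted p = 0.0333) and Ndufv3 (0.44, 0.00923) also rose, and Ndufc1, an accessory subunit of the membrane arm, fell (-0.36, 0.0244). Over the 36 genes of complex I the median difference was 0.13.

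In complex II, Sdhc, which anchors the enzyme in the inner membrane, rose. It had 10.81, 10.64 and 11.03 in WT IRE1a cells, against 10.47, 10.31 and 10.22 in EGFP cells (0.49 ± 0.14, adjusted p = 0.0392). Its S724A signals of 10.89, 10.75 and 10.64 also lay above those of EGFP cells, a difference of 0.43 ± 0.14 (adjusted p = 0.0768, or 0.049 with the block). A second Sdhc probe set read 0.22 for WT against EGFP and did not pass. The WT call was lost without WT replicate 1 or 3 or EGFP replicate 2 or 3, with adjusted p up to 0.163. The other 3 genes of the complex, the flavoprotein Sdha, the iron-sulphur protein Sdhb and the second anchor Sdhd, did not pass.

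In complex III, 3 of 8 subunits rose, all small accessory proteins, where 5.08% of all genes rose, and the median over the complex was 0.24. Uqcrq, which sits beside cytochrome b, had 12.46, 12.38 and 12.56 in WT IRE1a cells, against 11.97, 12.05 and 12.12 in EGFP cells (0.42 ± 0.08, adjusted p = 0.00622). Uqcr11 had 11.27, 11.32 and 11.53, against 10.996, 10.79 and 11.12 in EGFP cells (0.40 ± 0.11, adjusted p = 0.0351). Uqcrh, the hinge protein between cytochrome c1 and cytochrome c, had 12.79, 12.72 and 12.76, against 12.52, 12.44 and 12.36 in EGFP cells (0.31 ± 0.09, adjusted p = 0.0377). The WT arrays lay above the EGFP arrays for all 3 genes, and S724A differences of 0.26, 0.33 and 0.19 did not pass, although that of Uqcr11 did with the block (adjusted p = 0.0442). The Uqcrq call held without any 1 array, but its dimmer probe sets did not pass: the mean of all 4 gave 0.13, and the set left when those with a shared-sequence suffix were dropped, an alternative chosen after seeing the data, gave -0.069. Uqcr11 lost its call without WT replicate 2 or 3 or EGFP replicate 1 or 2 (adjusted p up to 0.161), and Uqcrh without any 1 WT array or EGFP replicate 2 or 3 (up to 0.139). Median centring ended both calls (0.0582 for Uqcr11 and 0.113 for Uqcrh), which left Uqcrq as the 1 of these 3 past the threshold, and quantile normalisation ended that of Uqcr11 (0.0574). Uqcr10 joined them with the block (0.36, adjusted p = 0.0306). The core proteins Uqcrc1 and Uqcrc2 and the Rieske protein Uqcrfs1 did not pass.

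In complex IV, 0 of 16 tested subunits passed after wild-type IRE1a, where 7.67% of all genes did, and a count of 0 among 16 is near that share. The median over the complex was 0.12. The widest difference was that of Cox6b2, a testis isoform, with 5.39, 5.93 and 8.003 in WT IRE1a cells, against 5.02, 5.08 and 6.00 in EGFP cells. Its replicate 3 was high in both groups, and in S724A IRE1a cells it had 5.25, 5.39 and 6.88. The difference of 1.07 ± 0.57 did not pass (adjusted p = 0.301) and did with the replicate block (0.0128). Cox4i1, the widely expressed isoform of its subunit, stayed between 12.86 and 13.19 on all 15 arrays.

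In complex V, 2 of 17 subunits fell after each construct, Atp5o and Atp5d, where 2.59% and 2.25% of all genes fell. Both are stalk proteins, but the stalk subunits Atp5c1, Atp5e, Atp5h, Atp5j and Atp5pb did not pass, so the stalks did not fall as a unit. Atp5o, the oligomycin sensitivity protein that ties the catalytic head to the outer stalk, had 11.56, 11.63 and 11.68 in WT IRE1a cells, against 12.24, 11.99 and 12.17 in EGFP cells (-0.51 ± 0.10, adjusted p = 0.0063). In S724A IRE1a cells it had 11.68, 11.55 and 11.59 (-0.53 ± 0.10 against EGFP, adjusted p = 0.00612). All 6 arrays with IRE1a virus lay below all 9 others for Atp5o, and both calls held under every alternative run. Atp5d, a subunit of the rotating inner stalk, had 12.16, 12.17 and 12.18 in WT IRE1a cells and 12.19, 12.02 and 11.94 in S724A IRE1a cells, against 12.67, 12.48 and 12.51 in EGFP cells. These were differences of -0.38 ± 0.09 (adjusted p = 0.0189) and -0.50 ± 0.09 (adjusted p = 0.00413). Again no array with IRE1a virus reached any of the other 9. The WT call for Atp5d was lost without any 1 WT array or EGFP replicate 1 (adjusted p up to 0.0684), and the S724A call held under every alternative that could be run. Second probe sets read close to these values, -0.50 and -0.49 for Atp5o, neither past the threshold over all probe sets, and -0.38 and -0.46 for Atp5d, the S724A one past it. The median over the 17 genes of complex V was 0.10, and the catalytic subunit Atp5b differed by -0.02 ± 0.09. Atp5g1, 1 of the genes for the rotor ring, rose with the block in both comparisons (0.33 and 0.30, adjusted p = 0.0292 and 0.0436).

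S724A IRE1a was set against the same EGFP arrays, so both comparisons move with the deviations of those arrays. In it 3 of 81 subunits passed (3.7%, against 6.12% of all genes): Ndufa9, Atp5o and Atp5d fell (2.25% of all genes did), and 0 rose (3.87% of all genes did), while 17 had an unadjusted p under 0.05. These 3 are also among the 10 that passed for wild-type IRE1a. With the replicate block 7 passed (8.64%, against 14.4%). Ndufs4 was added to those that fell (5.52% of all genes), and Atp5g1, Uqcr11 and Sdhc rose (8.89% of all genes). The median over the subunits was 0.04, against -0.01 over all genes, and it turned to -0.01 with quantile normalisation. Over genes with a signal of 6 or more it was 0.05, against 0.06. By array, the subunits' median deviation was 0.002, 0.024 and -0.038 in S724A IRE1a cells, against -0.013, -0.117 and -0.019 in EGFP cells. All 3 S724A arrays lay above the EGFP arrays for 22 subunits (27.2%, against 16.5% of all genes) and below them for 8 (9.88%, against 16.8%).

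Wild-type and S724A IRE1a cells were not told apart by any subunit. With limma, 0 of 81 passed, and 0% of all genes; 2 subunits and 997 genes had an unadjusted p under 0.05. With the replicate block 0 subunits passed again, against 0.0123% of all genes, all of which fell. The WT arrays lay above the S724A arrays for 14 subunits (17.3%, against 8.56% of all genes) and below them for 4 (4.94%, against 4.69%). The 95% interval of the difference lay within 0.5 of 0 for 73 of the 81. The widest gap in complex I was that of Ndufc1, with 11.29, 11.31 and 11.29 in WT IRE1a cells, against 11.78, 11.80 and 11.52 in S724A IRE1a cells (-0.41 ± 0.11, adjusted p = 0.731). Its groups did not overlap, and the S724A values spread around the EGFP values of 11.62, 11.67 and 11.66. Uqcrc2 had 11.41, 11.24 and 11.75, against 11.23, 11.24 and 11.01 in S724A IRE1a cells (0.31 ± 0.14, adjusted p = 0.803). The median over the subunits was 0.06, against 0.03 over all genes.

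**Figure D3:**
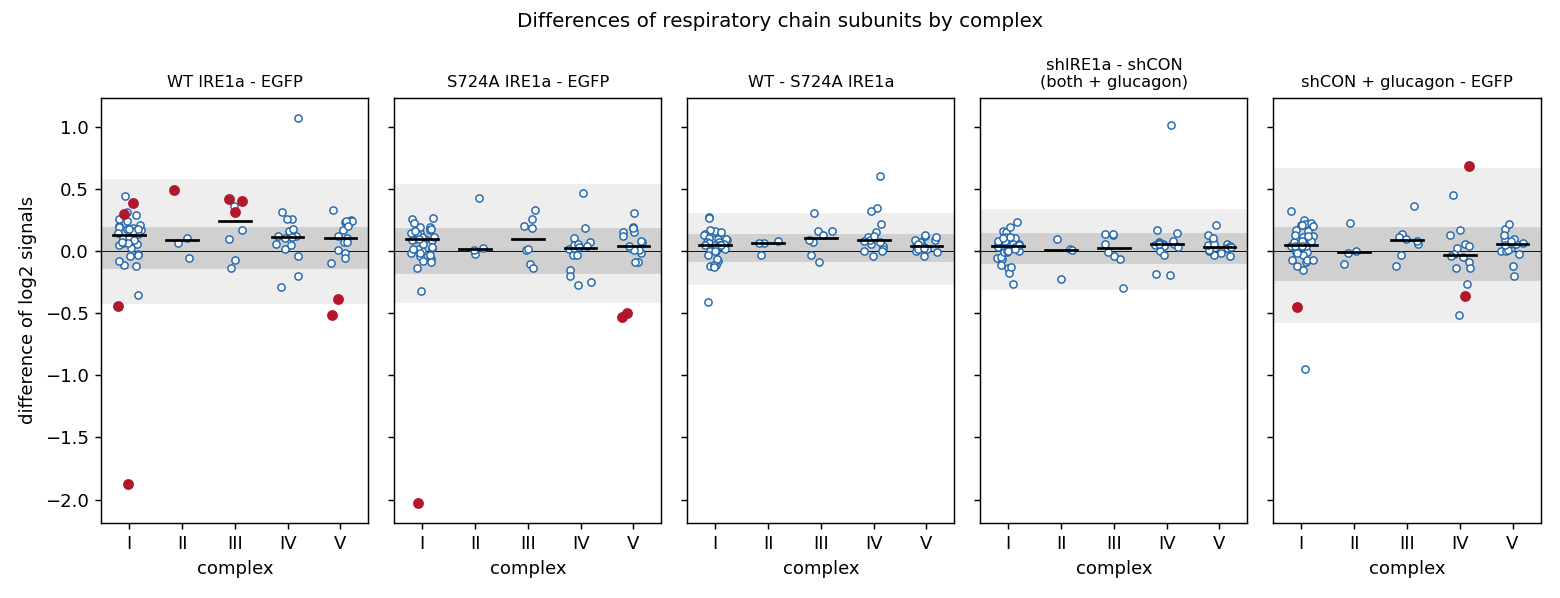
Differences of log2 signals in 5 comparisons; each point is 1 subunit by complex, filled red where it passed the threshold and open blue where it did not, with a black bar at the complex's median. Grey bands hold the middle 50% and 90% of all genes tested. Most subunits lie inside the bands, and Ndufa9 lies far below them in the first 2 panels only.

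Knockdown of IRE1a under glucagon left 0 of 81 subunits past the threshold, with or without the replicate block. Of all genes 0.233% passed without the block, and 0.534% rose and 0.694% fell with it. With limma, 1 subunit, Uqcrc2, and 1260 genes had an unadjusted p under 0.05. Ndufa9 had 11.59, 11.63 and 11.69 in shIRE1a cells, against 11.57, 11.61 and 11.57 in shCON cells, a difference of 0.05 (95% interval -0.15 to 0.26). Atp5o had 12.41, 12.58 and 12.29, against 12.22, 12.31 and 12.12 in shCON cells (0.21, interval -0.01 to 0.43), with overlap between the groups. Uqcrc2, a core protein of complex III, had 11.33, 11.41 and 11.34, against 11.67, 11.78 and 11.54 in shCON cells (-0.30 ± 0.14, adjusted p = 0.63). Cox6b2 had 6.34, 5.28 and 5.98, against 5.22, 4.82 and 4.52 in shCON cells, a difference of 1.01 ± 0.57 (adjusted p = 0.689). For 74 of 81 subunits the 95% interval lay within 0.5 of 0. The median was 0.04, against 0.02 over all genes. It was 0.03 with quantile normalisation, against 0.001 over all genes, and 0.001 with median centring, against -0.02. The shIRE1a arrays lay above the shCON arrays for 8 subunits (9.88%, against 6.05%) and below for 1 (1.23%, against 5.49%).

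The control hairpin with glucagon was also set against EGFP without it, and there virus, hours and glucagon differ together and cannot be told apart. Of 81 subunits 3 passed (3.7%, against 16.1% of all genes). Cox7a1 rose, where 9.34% of all genes did, and Ndufa8 and Cox6a2 fell, where 6.74% did. The shCON arrays lay above the EGFP arrays for 17 subunits (21.0%, against 16.6% of all genes) and below them for 6 (7.41%, against 19.6%). Ndufa8, an accessory subunit of complex I facing the intermembrane space, had 11.61, 11.83 and 11.77 in shCON cells, against 12.14, 12.06 and 12.37 in EGFP cells (-0.45 ± 0.12, adjusted p = 0.0182). Cox6a2, a muscle isoform of complex IV, had 6.67, 6.71 and 6.56, against 7.01, 7.03 and 6.998 in EGFP cells (-0.37 ± 0.09, adjusted p = 0.0154). Cox7a1, likewise a muscle isoform, had 5.23, 5.32 and 4.48, against 4.10, 4.46 and 4.41 in EGFP cells (0.69 ± 0.21, adjusted p = 0.0384). None of these groups overlapped, but Cox7a1 replicate 3 lay just above the highest EGFP array and its call was kept without that array but lost without any 1 of the other 5 (adjusted p up to 0.146). Ndufa8 lost its call without shCON replicate 1 or EGFP replicate 3 (up to 0.09), and the count of subunits past the threshold was then 1 in both cases. The hypoxia-induced isoform gene Ndufa4l2 had 8.14, 9.86 and 9.03, against 10.03, 9.996 and 9.87 in EGFP cells, a difference of -0.95 ± 0.44 (adjusted p = 0.15). In shIRE1a cells it had 7.78, 9.66 and 8.81, so replicate 1 was low and replicate 2 high with both hairpins. The median over subunits was 0.04, against -0.05 over all genes, and was -0.01 with quantile normalisation.

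Ppargc1a, a coactivator of respiratory genes that glucagon induces, had 8.87, 8.91 and 7.85 in shCON cells with glucagon, against 4.66, 4.84 and 4.31 in EGFP cells, a difference of 3.94 ± 0.32 (adjusted p = 4.68e-06). In the same comparison the 95% interval of the subunits' differences lay within 0.5 of 0 for 71 of 81. Virus, hours and glucagon differ together there, and any link between Ppargc1a and the subunits was not tested. With knockdown Ppargc1a had 9.15, 8.15 and 8.58 in shIRE1a cells, which overlapped the shCON values (0.08 ± 0.32). Ppargc1a did not pass for WT IRE1a (-0.32 ± 0.32) or S724A IRE1a (-0.40 ± 0.32) against EGFP. Of the 12 regulators of respiratory genes that were listed, 0 passed for WT IRE1a, where 7.67% of all genes did. For S724A IRE1a 1 rose, the ribosomal RNA methyltransferase gene Tfb1m (0.62 ± 0.16, adjusted p = 0.0368), where 3.87% of all genes did. Counts this small are near those shares. The comparison of the control hairpin with EGFP had 2 of the 12 rising, Ppargc1a among them, and 2 falling. Of all genes 9.34% rose and 6.74% fell there.

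Genes that assemble the complexes were read from separate lists. Unlike the subunit calls, the calls in these lists were not repeated under other scalings or with single arrays left out. For complex I assembly, 3 of 15 tested factors passed after wild-type IRE1a: Ndufaf5 and Acad9 fell, where 2.59% of all genes did, and Ndufaf8 rose, where 5.08% did. After S724A IRE1a the same 2 fell, where 2.25% of all genes did, and 0 rose. Ndufaf5, which hydroxylates the subunit Ndufs7 during assembly, had 7.14, 7.10 and 7.13 in WT IRE1a cells and 7.73, 7.40 and 7.17 in S724A IRE1a cells, against 8.64, 8.32 and 8.30 in EGFP cells. These were differences of -1.29 ± 0.15 (adjusted p = 9.63e-05) and -0.98 ± 0.15 (adjusted p = 0.0011). Acad9, an acyl-CoA dehydrogenase that also serves membrane arm assembly, had 8.20, 8.27 and 8.49 and, with S724A, 8.36, 8.25 and 8.39, against 9.06, 8.96 and 8.99 in EGFP cells. It fell by 0.69 and 0.67 on the log2 scale (adjusted p = 0.000412 and 0.000561). For both genes all 6 arrays with IRE1a virus lay below all 9 others. Cytochrome c1, encoded by Cyc1 and a catalytic subunit of complex III that the naming rule leaves out, had 11.91, 11.75 and 11.46 in WT IRE1a cells and 12.03, 11.87 and 11.79 in S724A IRE1a cells, against 12.31, 12.22 and 12.25 in EGFP cells. It fell for WT (-0.56 ± 0.12, adjusted p = 0.0091), opposite to the 3 complex III subunits that rose, and for S724A passed with the block only (-0.37 ± 0.12, adjusted p = 0.0807, or 0.0271 with the block).

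**Figure D4:**
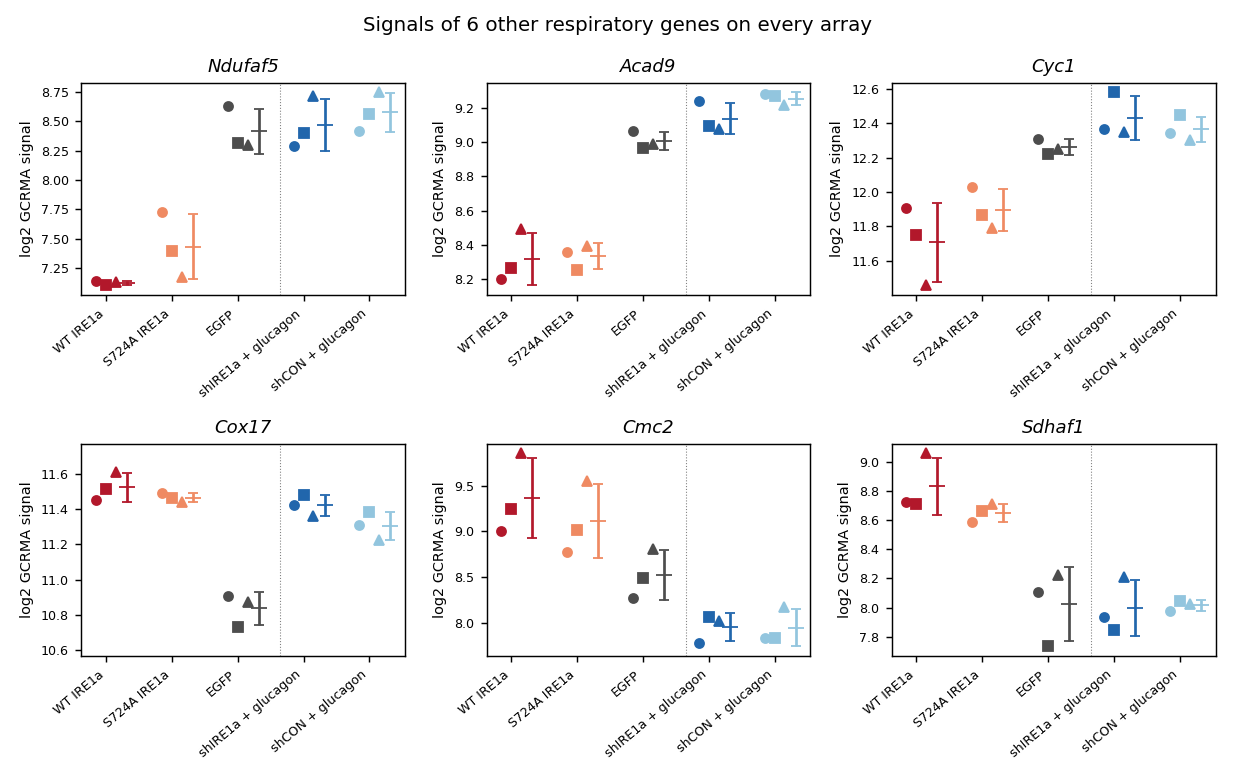
Log2 GCRMA signals of 6 genes outside the naming rule, drawn as in the plot of subunit signals: points are arrays and bars are means ± SD of 3 arrays. Ndufaf5, Acad9 and Cyc1 are lower, and Cox17 and Sdhaf1 higher on every WT and S724A IRE1a array than on any EGFP array, Cmc2 overlaps between S724A IRE1a and EGFP, and the hairpin groups of Cox17 lie near the IRE1a groups.

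Among complex IV assembly factors, 6 of 20 tested rose after WT IRE1a and 4 after S724A IRE1a, and 0 fell in either. Of the 16 complex IV subunits 0 passed in either, where 7.67% and 6.12% of all genes did, and a count of 0 among 16 is near those shares. The background of rising genes is 5.08% and 3.87%, and the medians over the 20 factors were 0.21 and 0.18. Cox17, the copper chaperone of complex IV, had 11.45, 11.51 and 11.61 in WT IRE1a cells and 11.49, 11.46 and 11.44 in S724A IRE1a cells, against 10.91, 10.73 and 10.87 in EGFP cells. It rose by 0.69 ± 0.09 (adjusted p = 0.000216) and 0.63 ± 0.09 (adjusted p = 0.000505). Cox17 was also 0.47 ± 0.09 higher in shCON cells with glucagon than in EGFP cells (adjusted p = 0.00345), so all 12 other arrays lay above the EGFP arrays. Cox16 rose by 0.57 and 0.40 and Coa3, which steadies the nascent Cox1 protein, by 0.50 and 0.48. Coa6 and Cox20 passed for WT IRE1a (0.57 and 0.52), and Cox18, which helps insert Cox2 into the membrane, for S724A IRE1a (0.35). The difference between the constructs passed for no listed gene, and for 0% of all genes tested, so it says nothing particular about these lists. Of 4 complex II assembly factors, 2 rose for WT IRE1a and 1 for S724A IRE1a. Sdhaf1, which guides iron-sulphur clusters to Sdhb, rose in both comparisons (0.81 ± 0.14 and 0.63 ± 0.14, adjusted p = 0.00201 and 0.0133).

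Of the other lists, fewer genes passed. None of the 6 complex III assembly factors passed for either construct, with medians of 0.09 and 0.11, and with the block 2 and 1 of them rose, where 10.6% and 8.89% of all genes did. Of 4 tested ATP synthase assembly and inhibitor genes, 1 rose for WT IRE1a, the assembly factor Atpaf1 (0.45 ± 0.13, adjusted p = 0.0442), and 0 passed for S724A IRE1a. Of 12 tested citric acid cycle enzymes, 1 rose for each construct, Suclg1, a subunit of succinyl-CoA ligase (0.49 and 0.42). That is near the 5.08% and 3.87% of all genes that rose, and the list medians were -0.02 and 0.01. In the knockdown comparison 0 genes of these lists passed, where 0.233% of all genes did. With the block 1 complex IV assembly factor rose, where 0.534% of all genes did. Counts this small say little about the lists. The 13 subunits encoded by mitochondrial DNA had no probe set of their own in this annotation and were not analysed here.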

How the data were processed

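Total RNA of 15 samples was labelled with biotin and hybridised to Mouse Genome 430 2.0 arrays. The authors deposited 1 table of 45101 probe sets, with log2 signals made with GCRMA, per the submitters' processing notes; no version is stated there. GCRMA, as generally run, subtracts a background predicted from each probe's bases, forces arrays onto 1 distribution and fits 1 value per probe set, so dim signals are compressed. The log2 scale was read from the values, which ran between 1.91 and 14.80.

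Leaving out 64 control probe sets, 34945 had 1 gene symbol in the platform's annotation, 932 several and 9160 none. Genes were taken from the first, with 1 probe set each, giving 18193 genes, and those with a signal of 4 or more on at least 3 arrays were tested (16294). The 82 subunit genes have 169 probe sets, and 49 genes have more than 1. All 82 matched the RefSeq gene table of GRCm38.p6. The subunit genes and lists were chosen with earlier results of these data known.

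Group means of the 5 groups were fitted jointly on 15 arrays in R 4.3.3 with limma 3.58.1 (lmFit and eBayes, 10 residual degrees of freedom), and the fit was tested on simulated data. Tests are two-sided with Benjamini-Hochberg adjustment per comparison. The number of arrays limits the precision. Samples were grouped by their labels. The pairing of replicate numbers was checked on residual correlations: the 12 same-numbered pairs within the overexpression or within the hairpin groups all correlated at 0.20 to 0.69, and 0 of 24 pairs with different numbers passed 0.1. Fits with the replicate number as a block were therefore given beside results that they change.

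Genes named are Ndufa9 and Atp5o, subunits past the threshold, the widest difference by comparison and complex, the highest and lowest by mean, core subunits and isoforms, Ern1, Ppargc1a, and from each list of partner genes, in each comparison, at most 4 past the threshold by smallest p. Ndufb11, Ndufv3, Uqcr10 and Cmc2 were named after their values were seen, as were the genes whose promoters are shown. Alternatives changed the normalisation, the filter, the choice of probe set, the arrays fitted, the variance model, the block and each array in turn. Python 3.11.15, pandas 2.3.3 and matplotlib 3.10.9 were used for tables and figures.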

Additional observations from a re-analysis of the deposited data

How the results depend on the processing

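The count of subunits past the threshold for WT IRE1a against EGFP, 10, was 2 (0 rose, 2 fell) with the 6 arrays of the comparison alone, where fewer arrays estimate the spread, 8 (3 rose, 5 fell) with quantile normalisation, 7 (3 rose, 4 fell) with median centring, 16 with a trended prior variance and 16 with the replicate block, and lay between 3 and 6 with 1 array left out. For S724A IRE1a it was 7 in place of 3 with the block, and 3 without any 1 array. For the control hairpin with glucagon against EGFP it was 5 in place of 3 with the mean of all probe sets of a gene, 5 with the trended variance, 5 with probe sets lacking the shared-sequence suffixes (chosen after seeing the data) and 1 with 6 arrays, and lay between 1 and 3 with 1 array left out; the cause was not tested. The Uqcrq difference for WT IRE1a turned to -0.069 in the suffix alternative, which reads another probe set. The paired fit changed no other call of a subunit than those given beside the results, and no block could be fitted between the hairpin and EGFP groups. The counts of 0 for WT against S724A IRE1a and for the knockdown stayed 0 under every alternative run. Of the 1250 genes past the threshold for WT IRE1a, 66.2% rose, against 53.1% with quantile normalisation; for S724A IRE1a 63.3% did, against 52.9%. With median centring the share was 9.3% in place of 21.1% for the knockdown and 71.1% in place of 58.1% for the control hairpin against EGFP. Probe signals near background and 3 arrays a group limit what can be seen.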

Other observations

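The 87 further probe sets of the subunit genes were tested apart. Of the 84 that passed the filter, 2 rose and 1 fell for WT IRE1a, against 4.8% of 37203 probe sets in either direction, and 1 rose and 3 fell for S724A IRE1a, against 4.08%. For the knockdown 0 passed, against 0.151%, and for the control hairpin with glucagon against EGFP 4 rose and 1 fell, against 11.9%. A further 10 probe sets carry several gene symbols, at least 1 of them a subunit name, and none of the 10 passed in any of the 4 comparisons tried with limma, with adjusted p of 0.069 or more.

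Xbp1, the message that IRE1a splices, was named after its values were seen. It had signals of 12.80, 13.06 and 12.94 in WT IRE1a cells and 12.80, 12.91 and 12.75 in S724A IRE1a cells, against 12.39, 12.21 and 12.31 in EGFP cells. It rose by 0.63 ± 0.11 (adjusted p = 0.00309) and 0.52 ± 0.11 (adjusted p = 0.0137). The array signal does not separate spliced from unspliced Xbp1. In shIRE1a cells it had 12.34, 12.09 and 12.29, against 12.51, 12.31 and 12.15 in shCON cells, and the groups overlapped.

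Fh1, the fumarase of the citric acid cycle, had 12.30, 12.41 and 12.09 in shCON cells with glucagon, against 11.64, 11.43 and 11.62 in EGFP cells, and rose by 0.71 ± 0.11 (adjusted p = 0.000896). Cox19, a copper-related assembly factor of complex IV, averaged 10.17 ± 0.20 in those shCON cells, against 10.92 ± 0.06 in EGFP cells (SD, n = 3 each), and fell by 0.75 on the log2 scale (adjusted p = 0.000715). Virus, hours and glucagon cannot be told apart in this pair of groups.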
